A study of Mus musculus with 2 samples.

Results

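Oxidative phosphorylation genes were compared between 2 single-cell RNA-Seq libraries of aged mouse hindlimb muscle. The genes were chosen by symbol alone, as the subunits and closely named factors of respiratory complexes I to V (symbols that begin with Ndufa, Ndufb, Ndufc, Ndufs, Ndufv, Uqcr, Cox4i, Cox5, Cox6, Cox7, Cox8, Atp5, mt-Nd, mt-Co, mt-Cyt or mt-Atp, together with Sdha, Sdhb, Sdhc and Sdhd). The rule took 107 of 32285 genes, and no measured value entered it. Of these, 94 are nuclear genes (45 of complex I, 4 of complex II, 8 of complex III, 20 of complex IV and 17 of complex V), and 13 are encoded by the mitochondrial genome (7 of complex I, 1 of complex III, 3 of complex IV and 2 of complex V). Ndufa4 and Ndufa4l2 carry complex I names but were counted with complex IV, where the protein of Ndufa4 resides. Of the 45 nuclear complex I genes, 8 are assembly factors (symbols that begin with Ndufaf). All 107 genes were found in the GENCODE M21 annotation of GRCm38, and the nuclear ones lie on 19 chromosomes.

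Complexes I to IV pass electrons from NADH and succinate to oxygen, complexes I, III and IV pump protons across the inner mitochondrial membrane, and complex V (ATP synthase) uses the gradient to make ATP. Complexes I, III, IV and V are built from proteins of both genomes, so the nucleus and the mitochondrion have to supply matching parts, whereas complex II is wholly nuclear. Muscle fibers are rich in mitochondria and use their own isoforms of some complex IV subunits. Quiescent muscle stem cells (MuSCs) hold few mitochondria and raise respiration upon activation.

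The first library (ATRA+agonist) came from female C57Bl/6J mice of 24 months whose hindlimb muscles had received 3 intramuscular injections of a cocktail of all-trans retinoic acid (ATRA, the active form of vitamin A), CD3254 (an agonist of the receptor RXR-alpha) and BMS961 (an agonist of the receptor RAR-gamma). The second (DMSO vehicle) came from mice of the same sex, strain and age that received only the solvent. Each library pools cells of 2 mice, which leaves 1 library per group. Mice within a library cannot be separated, the 3 compounds were given together, every mouse was old, and no difference below has a replicate check or a p-value.

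The counts are unique molecular identifiers (UMIs, 1 per captured RNA molecule) from the 3-prime ends of transcripts. They summed to 65197625 over 10444 barcodes with ATRA+agonist and to 109343486 over 17394 barcodes with DMSO vehicle, and 6907 and 6953 cells passed the limits on genes, mitochondrial UMIs, hemoglobin and doublets. The libraries shared 43 barcode sequences, 9 of which were kept in both. Of 28 clusters, 26 were named in 13 classes from marker genes, and the 7 classes with at least 100 cells in each library were compared. These held 414 ATRA+agonist and 531 DMSO vehicle MuSC-like cells, 1332 and 1646 fibro-adipogenic progenitor-like (FAP-like) cells, 2584 and 2500 endothelial-like cells, 222 and 325 smooth muscle/pericyte-like cells, 161 and 497 tenocyte-like cells, 134 and 391 neural (glial)-like cells, and 516 and 401 monocyte or macrophage-like cells. Hemoglobin RNA, which these cells do not make, was lower with ATRA+agonist in each of the 7 classes, with median log2 ratios from -1.79 to -1.36.

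Promoter sequences of the nuclear genes were read from RefSeq (GRCm38.p6, 250 bases before to 50 after the start), where 75 of the 94 genes had a window. The windows of these genes were rich in CpG, with a median of 19 CpG per window against 7 over all 32851 windows. The NRF1 motif GCGCATGCG was found on either strand in 12.5% of the 80 windows of these genes and in 1.75% of all windows. NRF1 is a transcription factor known for its sites in respiratory genes. The YY1 motif AAGATGGCG was found in 10% against 1.4%, the estrogen-related receptor motif NAAGGTCA in 10% against 4.69%, and the ETS motif CCGGAAGTG in 2.5% against 2.03%. The E-box CAGCTG, which myogenic factors bind, was found in 7.5% against 16.3%. The short hypoxia core (ACGTG or GCGTG) was found in 66.2% against 43.8%. These are matches of letters and were not tested as sites. The 5 windows below are shown because they belong to complex IV isoforms that separate cell types in the next paragraphs: Cox6a1, Cox7a2 and Cox8a are the general forms, and Cox7a1 and Cox8b are forms of muscle fibers. Capitals mark matches to the NRF1, ETS, estrogen-related receptor or E-box motifs, and sequences run 5′ to 3′ on the gene's strand.
Cox6a1, chr5:115348909-115349208, minus strand: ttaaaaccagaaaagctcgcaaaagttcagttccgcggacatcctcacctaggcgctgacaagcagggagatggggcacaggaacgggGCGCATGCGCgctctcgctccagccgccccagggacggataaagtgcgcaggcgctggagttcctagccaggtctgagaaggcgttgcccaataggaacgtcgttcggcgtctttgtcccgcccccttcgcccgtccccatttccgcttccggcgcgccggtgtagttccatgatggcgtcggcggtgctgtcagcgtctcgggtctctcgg
Cox7a2, chr9:79759804-79760103, minus strand: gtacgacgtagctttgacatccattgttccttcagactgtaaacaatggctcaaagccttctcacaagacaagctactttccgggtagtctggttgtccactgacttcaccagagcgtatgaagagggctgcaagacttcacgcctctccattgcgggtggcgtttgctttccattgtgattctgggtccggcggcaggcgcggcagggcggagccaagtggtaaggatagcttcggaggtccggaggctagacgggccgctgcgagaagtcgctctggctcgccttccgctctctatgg
Cox7a1, chr7:30183921-30184220, plus strand: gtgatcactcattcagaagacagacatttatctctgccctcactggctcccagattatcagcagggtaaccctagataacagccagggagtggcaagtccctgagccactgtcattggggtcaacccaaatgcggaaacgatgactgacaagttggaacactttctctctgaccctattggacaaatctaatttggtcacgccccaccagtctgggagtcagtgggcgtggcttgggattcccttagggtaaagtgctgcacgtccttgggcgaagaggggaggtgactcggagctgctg
Cox8a, chr19:7217567-7217866, minus strand: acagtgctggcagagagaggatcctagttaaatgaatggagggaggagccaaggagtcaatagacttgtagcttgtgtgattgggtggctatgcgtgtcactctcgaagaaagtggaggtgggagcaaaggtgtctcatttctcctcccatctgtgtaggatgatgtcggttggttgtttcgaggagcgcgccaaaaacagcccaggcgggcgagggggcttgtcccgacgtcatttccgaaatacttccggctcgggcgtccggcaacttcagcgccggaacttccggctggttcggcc
Cox8b, chr7:140900397-140900696, minus strand: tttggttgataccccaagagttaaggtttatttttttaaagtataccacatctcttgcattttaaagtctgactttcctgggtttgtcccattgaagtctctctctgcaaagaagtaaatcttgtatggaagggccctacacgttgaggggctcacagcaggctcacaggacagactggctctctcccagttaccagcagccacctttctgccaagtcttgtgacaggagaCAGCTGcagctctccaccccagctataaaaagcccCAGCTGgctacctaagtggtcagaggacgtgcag
The window of Cox6a1 held 32 CpG and 2 overlapping NRF1 matches. Those of Cox7a2 and Cox8a held 20 and 19 CpG, with none of the capitalised motifs. Cox7a1 and Cox8b held 7 and 2 CpG, and Cox8b held 2 E-boxes.

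The first question was how much of each cell type's RNA these genes took up. Over all kept cells they made up 3.9% of UMIs with ATRA+agonist and 3.63% with DMSO vehicle, of which the 94 nuclear genes gave 1.34% and 1.21% and the 13 mitochondrial genes gave 2.56% and 2.42%. Levels are given as CPM, the usual scaling of a gene's UMIs to the total of its class (14309 CPM is 1.43% of the UMIs), which in 3-prime counts does not grow with transcript length. Among the 7 compared classes, smooth muscle/pericyte-like cells had the highest summed nuclear level, 18540 CPM with ATRA+agonist and 15708 CPM with DMSO vehicle. MuSC-like cells (14309 and 12968 CPM) and monocyte or macrophage-like cells (14145 and 13298 CPM) followed, and they lay closer to each other than the libraries did. FAP-like cells had the lowest values of the 7, 11446 and 10777 CPM. The mitochondrial sum had another order. It was 32408 and 29248 CPM in MuSC-like cells, 31830 and 33285 CPM in smooth muscle/pericyte-like cells, and 21379 and 20445 CPM in FAP-like cells. Monocyte or macrophage-like cells, close to MuSC-like cells in the nuclear sum, were near the bottom of the mitochondrial sum at 22578 and 21821 CPM. The 20% limit on mitochondrial UMIs per cell acts on these 13 genes themselves.

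**Figure D1:**
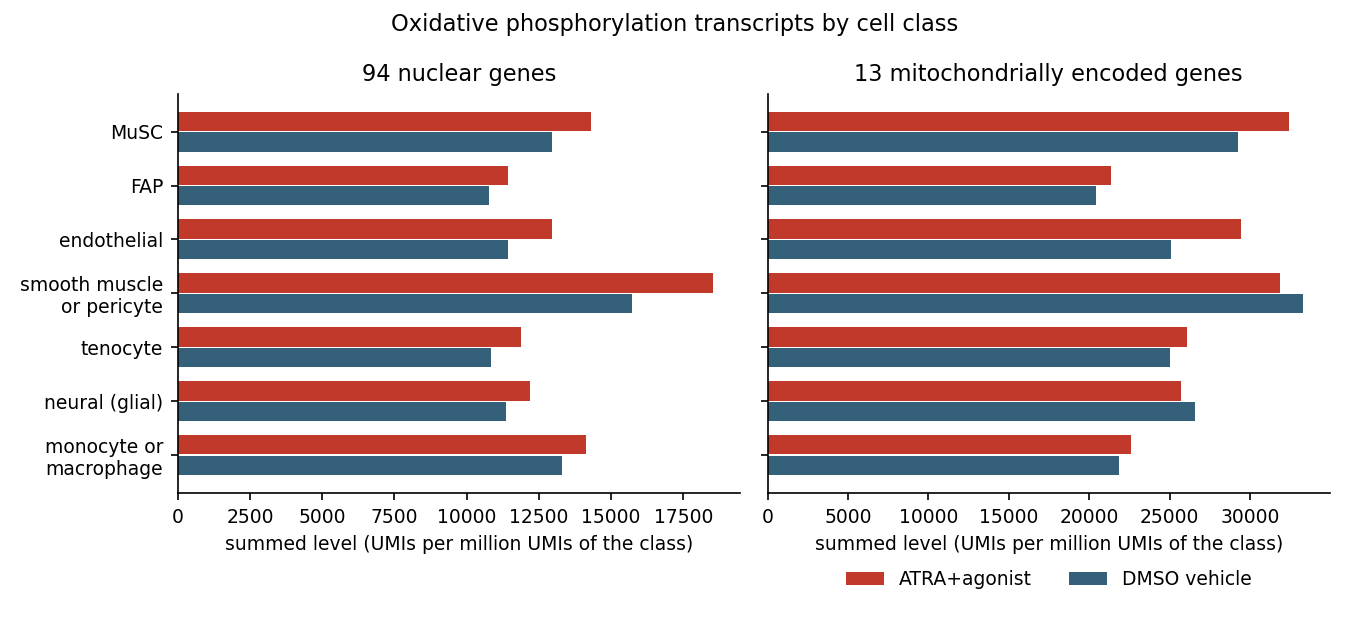
Summed levels of the 94 nuclear genes (left) and the 13 mitochondrially encoded genes (right) in CPM of each cell class, with 1 bar per library. Nuclear bars are longer with ATRA+agonist in all 7 classes, and smooth muscle/pericyte-like cells reach 18540, while mitochondrial bars are longer with DMSO vehicle in smooth muscle/pericyte-like and neural (glial)-like cells.

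A cluster of 229 barcodes, all from the ATRA+agonist library, carried the markers of muscle fibers (fiber-marker barcodes). Its nuclear oxidative phosphorylation genes summed to 97578 CPM, against at most 18540 CPM in the 7 compared classes, while its mitochondrial genes summed to 27105 CPM, inside the range of those classes. A median of 9.28% of the UMIs of a fiber-marker barcode came from the nuclear genes and 2.87% from the mitochondrial ones. In MuSC-like cells these medians were 1.25% and 2.99% with ATRA+agonist and 1.17% and 2.77% with DMSO vehicle. The marker list was that of fiber nuclei, but the cluster held little nuclear RNA, with a median of 1086 UMIs per barcode and 166 CPM of the nuclear RNA Malat1, which was 19418 CPM in endothelial-like cells of the same library. With no DMSO vehicle barcodes, nothing could be compared between groups here.

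Complex IV carries tissue forms of several subunits, and these separated the classes more sharply than any other members. Ndufa4l2 (chr10:127514967-127517154, plus strand), a hypoxia-inducible paralog of Ndufa4, had 1307 CPM with ATRA+agonist (1179 UMIs) and 1069 CPM with DMSO vehicle (1408 UMIs) in smooth muscle/pericyte-like cells, whereas Ndufa4 itself had only 56.5 and 75.9 CPM there. Ndufa4l2 therefore gave 95.9% of the UMIs of the pair with ATRA+agonist (exact 95% interval 94.6% to 96.9%) and 93.4% with DMSO vehicle (92% to 94.6%). In MuSC-like cells it had 1 and 2 UMIs against 946 and 955 of Ndufa4. Tenocyte-like and FAP-like cells lay between, with shares of 32.5% and 30.9% in tenocyte-like and 13.5% and 12.1% in FAP-like cells. Thinned to 1000 UMIs per cell, Ndufa4l2 was seen in 66.2% (137 of 207) and 58.8% (184 of 313) of smooth muscle/pericyte-like cells but in 2.63% and 2.92% of FAP-like cells and in 0 of 410 and 0 of 531 MuSC-like cells (exact upper limits 0.896% and 0.692%). Without thinning the share was 89.6% and 86.2% of smooth muscle/pericyte-like cells and 20.1% and 16.1% of FAP-like cells, and class median depths ran from 3780 to 9809 UMIs for these 4 groups. All intervals cover counting error only.

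Cox4i2 (chr2:152754173-152765037, plus strand), the second form of subunit 4, had the same leading class. It gave 49.6% of the UMIs of the pair with Cox4i1 in smooth muscle/pericyte-like cells with ATRA+agonist (526 of Cox4i2 and 534 of Cox4i1) and 43.4% with DMSO vehicle (591 and 771). Cox4i2 was at 583 and 449 CPM, against 592 and 586 CPM of Cox4i1, so the 2 forms were close to level with ATRA+agonist, while with DMSO vehicle Cox4i2 gave the smaller share (exact 95% interval 40.7% to 46.1%). In endothelial-like cells Cox4i2 had 8.84 and 14.6 CPM, and in MuSC-like cells 0.601 and 2.27 CPM. Over both libraries its level in smooth muscle/pericyte-like cells was 42.2 times that in the next class, and that of Ndufa4l2 was 16.2 times. The next largest lead among the 84 nuclear genes with 100 or more UMIs in their leading class was 1.8 times. That limit left out Cox7a1 and Cox6b2, which were also higher in smooth muscle/pericyte-like cells. Cox7a1 had 31 and 22.8 CPM there, against 8.03 and 4.06 CPM in neural (glial)-like cells. Cox6b2 had 26.6 and 25.1 CPM, against 8.41 and 11.8 CPM in MuSC-like cells.

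The 10 smooth muscle and pericyte markers were themselves present in other classes, at 184 and 150 CPM in FAP-like cells and 391 and 343 CPM in endothelial-like cells. Their own class had 18546 and 19358 CPM, and all 10 were detected in each of these. MuSC-like cells had 928 and 682 CPM, with 1 of the 10 at 0 in each library. They held 0.324 and 0.74 UMIs of Ndufa4l2 and 0.647 and 3.33 of Cox4i2 per 1000 UMIs of the markers. The marker sum and these 2 genes thus ordered the classes differently. Whether each class made the marker RNA itself was not tested, so these ratios do not show where the RNA of the 2 genes came from. Per 1000 UMIs of those markers, Ndufa4l2 had 70.5 and 55.2 UMIs in smooth muscle/pericyte-like cells, 176 and 185 in FAP-like cells and 220 and 205 in tenocyte-like cells. Cox4i2 had 31.4 and 23.2 UMIs per 1000 in smooth muscle/pericyte-like cells and 4.03 and 7.8 in FAP-like cells. FAP-like cells therefore held 43.7 and 23.7 UMIs of Ndufa4l2 for each UMI of Cox4i2, whereas smooth muscle/pericyte-like cells held 2.24 and 2.38.

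The fiber isoforms Cox6a2 (chr7:128205435-128206387), Cox7a1 (chr7:30184144-30186078) and Cox8b (chr7:140898945-140900446) marked the fiber-marker barcodes. There Cox6a2 had 1648 UMIs and Cox6a1 had 11, a share of 99.3% (98.8% to 99.7%). Cox8b had 672 UMIs against 100 of Cox8a (87%, 84.5% to 89.3%), and Cox7a1 had 319 against 456 of Cox7a2 (41.2%, 37.7% to 44.7%). Fiber barcodes thus used almost no Cox6a1 but kept Cox7a2 above Cox7a1. In MuSC-like cells the fiber forms gave at most 1.68% of their pair, with 3 and 4 UMIs of Cox6a2, 8 and 4 of Cox7a1 and 39 and 28 of Cox8b. MuSC-like cells held 12 and 12 UMIs of the fiber enzyme Ckm. They thus held 3.25 and 2.33 UMIs of Cox8b per UMI of Ckm, whereas fiber-marker barcodes held 0.103. FAP-like cells were also above the fiber-marker barcodes, at 0.821 and 1.8. For Cox7a1 the ratio to Ckm was 0.667 and 0.333 in MuSC-like cells and 0.0488 in fiber-marker barcodes. For Cox6a2 the same ratio was 0.25 and 0.333 in MuSC-like cells and 0.252 in fiber-marker barcodes. Cox7a1 was also found in smooth muscle/pericyte-like cells, with 28 and 30 UMIs, 8.38% and 6.98% of its pair, while Ckm had 16 and 1 UMIs there.

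**Figure D2:**
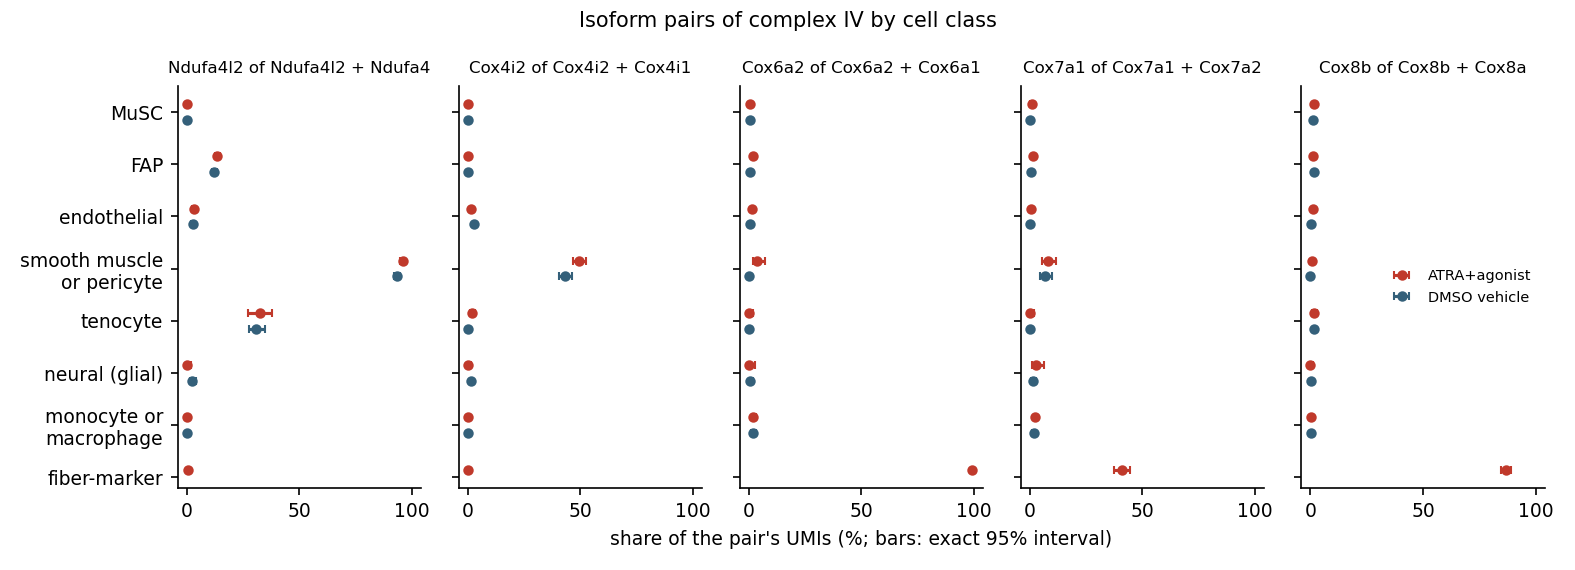
Share of the second isoform in the UMIs of each of 5 complex IV pairs, by cell class (points, 1 per library, with exact 95% intervals for counting error). Ndufa4l2 and Cox4i2 stand out in smooth muscle/pericyte-like cells (95.9% and 49.6% with ATRA+agonist), and Cox6a2, Cox7a1 and Cox8b in fiber-marker barcodes, which come from the ATRA+agonist library alone.

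Of the last pair, Cox6b2 (a form best known from testis) gave 8.82% and 9.04% in smooth muscle/pericyte-like cells, 3.39% and 5.49% in MuSC-like cells and 0 of 585 UMIs in fiber-marker barcodes, where the exact upper limit was 0.629%. Cox8c had 0 UMIs in all kept cells and Cox7b2 had 1, which leaves 105 genes with at least 10 UMIs. Of those 84 nuclear genes, 45 had their highest level in smooth muscle/pericyte-like cells, 17 in monocyte or macrophage-like cells and 7 each in endothelial-like and MuSC-like cells. The same counts over all genes are not given, so these show nothing particular to the respiratory genes. The leads were small, with 10 of the 84 at least 1.5 times above the second class. These included Ndufa8 (162 CPM), Atp5j (456 CPM) and Ndufc2 (269 CPM) in endothelial-like cells, at 1.72, 1.63 and 1.55 times the second class. In smooth muscle/pericyte-like cells they were Sdhc, which anchors complex II in the membrane (84.7 CPM, 1.8 times), Ndufs7 of the complex I electron path (178 CPM, 1.72 times), Atp5g3 of the ATP synthase rotor ring (238 CPM, 1.71 times), the catalytic subunit Atp5b (504 CPM, 1.61 times) and the complex III core protein Uqcrc1 (91 CPM, 1.52 times).

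The main comparison asked whether the cocktail-treated and vehicle-treated MuSC-like cells differed. A gene was counted in a class if it had 10 or more UMIs there over both libraries, which 90 of the 94 nuclear genes had in MuSC-like cells. Log2 ratios divide the ATRA+agonist CPM by the DMSO vehicle CPM. The median over these 90 genes was 0.18, against 0.04 over all 13169 genes counted, and 81 of the 90 (90%) lay above 0, against 54.9% of all genes. The shift was shallow. At least 1.2-fold higher (0.26 on the log2 scale) were 23 genes (25.6%), close to the 28.2% of all genes, which include many with few counts. At least 1.2-fold lower were 2 (2.22%), against 21.3% of all genes. The nuclear sum differed by 0.14 (95% interval 0.12 to 0.16, counting error only) and the mitochondrial sum by 0.15 (0.14 to 0.16). Which cells were counted mattered to both. When every cell had equal weight in place of its UMIs, the nuclear median was 0.08 and the mitochondrial difference 0.26, and with each cell thinned to 1000 UMIs they were 0.05 and 0.26.

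Complex I, the entry point for NADH, had the largest value among the nuclear groups in MuSC-like cells, 4421 against 3833 CPM (log2 0.21, 0.17 to 0.24), with 41 of its 45 genes above 0. Ndufb9, Ndufa6 and Ndufb11, accessory subunits with the most UMIs of this complex over both libraries, had 224, 206 and 209 CPM with ATRA+agonist and 198, 189 and 185 CPM with DMSO vehicle. Ndufaf3, an assembly factor, had the largest ratio among those with 100 or more UMIs, 0.70 (0.11 to 1.30, from 60 and 44 UMIs), and Ndufs1, the largest core subunit, the smallest, -0.09 (-0.41 to 0.23). Ndufa2, a small accessory subunit, had 184 and 162 CPM (log2 0.18, 0.02 to 0.35). It was higher with ATRA+agonist in all 7 classes, by 0.06 (-0.16 to 0.27) in tenocyte-like to 0.48 (0.21 to 0.76) in smooth muscle/pericyte-like cells. With MuSC-like cells thinned to 1000 UMIs, however, Ndufa2 was at -0.12, Ndufb9 at -0.15 and Ndufa6 at -0.06. Of genes named below for the other complexes, Sdha was then at -0.13, Uqcrb at -0.03, Cox7c at -0.23 and Atp5l at -0.21. The 8 assembly factors summed to 154 and 127 CPM (log2 0.28, 0.10 to 0.46).

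Complex II, which oxidises succinate, was the least abundant, with 218 against 193 CPM (log2 0.17, 0.02 to 0.32). The iron-sulfur subunit Sdhb had 74.8 and 61.8 CPM (0.28, 0.02 to 0.54) and the flavoprotein Sdha 74.2 and 63.8 CPM (0.22, -0.04 to 0.48). The membrane anchors Sdhc (42 and 39.6 CPM) and Sdhd (26.7 and 28 CPM) had intervals on both sides of 0. Sdhb was higher with ATRA+agonist in all 7 classes, with ratios from 0.23 to 0.46, though its interval held 0 in smooth muscle/pericyte-like (-0.13 to 0.64) and neural (glial)-like cells (-0.21 to 0.66).

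All 8 nuclear genes of complex III were above 0 in MuSC-like cells, and their sum was 1485 against 1338 CPM (log2 0.15, 0.09 to 0.21). The core protein Uqcrc1 had 62.8 and 44.1 CPM (0.51, 0.21 to 0.81). The hinge protein Uqcrh, the most abundant, had 592 and 569 CPM (0.06, -0.03 to 0.15), Uqcr11 had 208 and 187 CPM, and Uqcrb had 164 and 146 CPM.

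Complex IV, which reduces oxygen, differed least, with 4037 against 3843 CPM (log2 0.07, 0.04 to 0.10). Cox4i1, the most abundant nuclear member in MuSC-like cells, went the other way, with 804 CPM (2678 UMIs) against 854 CPM (3387 UMIs), a ratio of -0.09 (-0.16 to -0.01), or 0.00 with no upper limit on genes. Cox8a had 686 and 641 CPM (0.10, 0.02 to 0.18), Cox7c had 374 and 359 CPM, and Ndufa4 had 284 and 241 CPM (0.24, 0.11 to 0.37), the largest ratio of this complex among genes with 100 or more UMIs. The supercomplex factor Cox7a2l was level at 291 and 288 CPM. With every cell weighted equally the nuclear complex IV ratio was -0.01, and thinned to 1000 UMIs it was -0.10.

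Of ATP synthase, 16 of 17 nuclear genes were above 0, and the sum was 4149 against 3761 CPM (log2 0.14, 0.11 to 0.18). Atp5l had 447 and 432 CPM, the rotor ring gene Atp5g2 had 382 and 347 CPM, and Atp5e of the central stalk had 345 and 310 CPM. Atp5o, which joins the stalk to the catalytic head, had the largest ratio, 0.29 (0.12 to 0.47), and the catalytic Atp5a1 the smallest, -0.04 (-0.17 to 0.09).

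**Figure D3:**
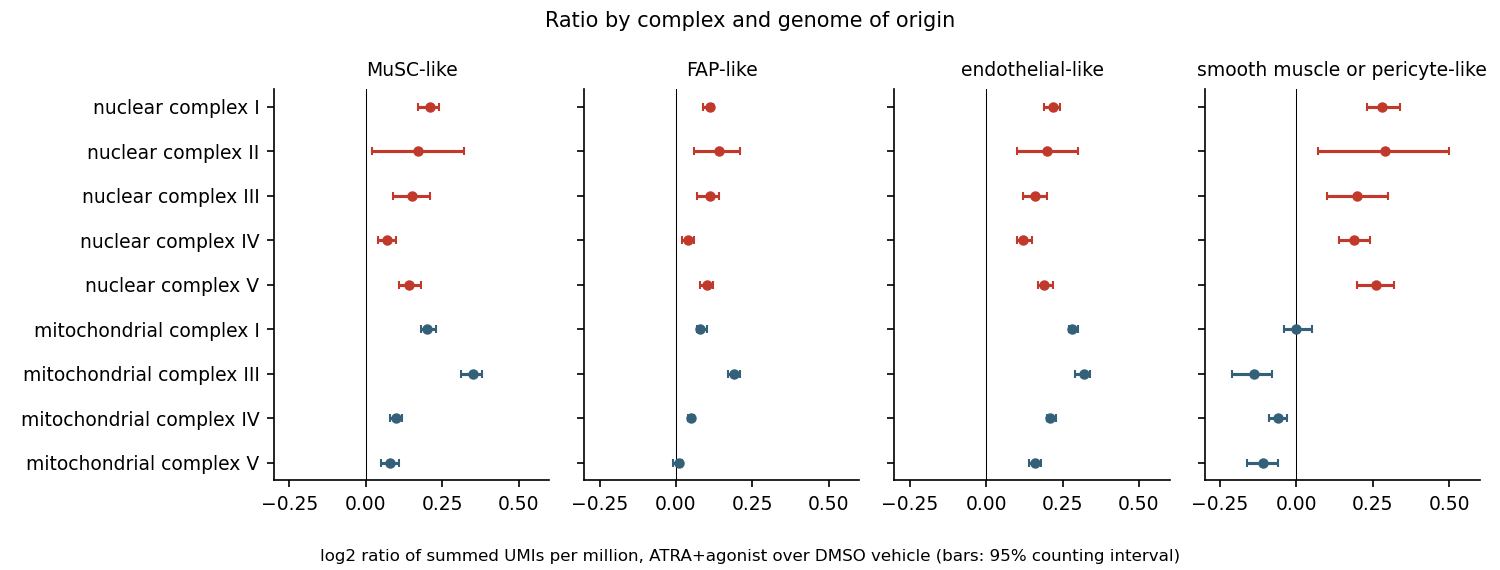
Log2 ratio of summed CPM, ATRA+agonist over DMSO vehicle, for each complex and genome of origin in 4 cell classes (points with 95% intervals for counting error). Nuclear groups lie right of 0 in all 4 panels, complex IV is the lowest nuclear group in each, and the mitochondrial groups lie at 0.00 to -0.14 in smooth muscle/pericyte-like cells but at 0.08 to 0.35 in MuSC-like cells.

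The 13 mitochondrial genes are cut from long polycistronic RNAs that the mitochondrion transcribes from both strands of its circular genome. In MuSC-like cells 11 of 13 lay above 0. The highest ratios were those of mt-Cytb of complex III, with 4045 and 3182 CPM (log2 0.35, 0.31 to 0.38), and mt-Nd2, with 1731 and 1377 CPM (0.33, 0.28 to 0.38). They were followed by mt-Nd3 (0.20), mt-Nd1 (0.19), mt-Nd4 (0.17), mt-Co3 (0.16) and mt-Nd4l (0.15). Lower were mt-Co2 (0.11), mt-Atp6 (0.08), mt-Nd5 (0.07) and mt-Co1, which was level at 4586 and 4545 CPM (0.01, -0.02 to 0.04). Below 0 were mt-Atp8 (48.9 and 49.2 CPM, -0.01) and mt-Nd6 (55 and 64.3 CPM, -0.23, -0.51 to 0.05). The most abundant was mt-Co3, at 6385 and 5717 CPM.

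Their positions bear on how they can be counted. The mt-Nd6 gene (chrM:13552-14070) is the one on the minus strand, and its 3-prime end overlaps that of mt-Nd5 (chrM:11742-13565). The genes mt-Atp8 (chrM:7766-7969) and mt-Atp6 (chrM:7927-8607) overlap and share 1 RNA, as do mt-Nd4l (chrM:9877-10173) and mt-Nd4 (chrM:10167-11544), so a 3-prime count of mt-Atp8 or mt-Nd4l is only a part of its RNA. Across the other classes mt-Cytb was at 0.32 in endothelial-like, 0.21 in tenocyte-like, 0.19 in FAP-like, 0.08 in monocyte or macrophage-like and 0.01 in neural (glial)-like cells. Smooth muscle/pericyte-like cells were at -0.14. The level of mt-Nd6 was lower with ATRA+agonist in 5 of the 7 classes and higher in endothelial-like (0.24, 0.05 to 0.42) and neural (glial)-like cells (0.05, -0.50 to 0.58).

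Smooth muscle/pericyte-like cells had the largest nuclear difference and no matching mitochondrial one. The nuclear median was 0.23 over 90 genes, against 0.04 over all genes counted, and 82 of the 90 lay above 0, against 53.2% of all genes. At least 1.2-fold higher were 40 (44.4%, against 31.8% of all genes) and at least 1.2-fold lower were 2 (2.22%, against 27.3%). The nuclear sum differed by 0.24 (0.21 to 0.27) while the mitochondrial sum differed by -0.06 (-0.09 to -0.04), with 6 of 13 mitochondrial genes above 0. Complex I was at 5870 and 4824 CPM (0.28, 0.23 to 0.34) for its nuclear genes and 8069 and 8052 CPM (0.00, -0.04 to 0.05) for its mitochondrial ones. Among single genes, Atp5g3 had 299 and 197 CPM (0.61, 0.35 to 0.86), Cox4i2 was at 0.38 (0.21 to 0.55) and Atp5b at 0.29 (0.12 to 0.47). The mitochondrial sum of this class was above 0 under 7 of 12 alternative settings, from -0.12 to 0.22, so it had no settled direction, whereas the nuclear sum ran from 0.17 to 0.31. In the larger of its clusters, led by Abcc9 and Kcnj8 (196 and 278 cells), the nuclear median was 0.31 and the mitochondrial ratio 0.01 (-0.02 to 0.03). Cells under 2500 UMIs (56 and 72) had a nuclear ratio of 0.67 (0.58 to 0.77), and the 2 ranges from 2500 to 10000 UMIs had 0.20 each.

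In endothelial-like cells the nuclear median was 0.22, against 0.08 over all genes counted, and 88 of 91 genes lay above 0, against 59.3% of all genes. At least 1.2-fold higher were 29 (31.9%, near the 28.9% of all genes) and lower was 1 (1.1%, against 18.6%). All 13 mitochondrial genes were above 0, and their sum was 29452 against 25089 CPM (0.23, 0.22 to 0.24). This class was made of different clusters in the 2 libraries, and within its largest clusters the nuclear difference was not seen. A first cluster, whose leading genes were Aqp1 and Kdr, held 1571 and 705 cells (ATRA+agonist and DMSO vehicle), and its nuclear median was 0.04, below the 0.07 of all genes counted, with 49 of 90 genes above 0. A cluster led by the interferon-response genes Cd274 and Gbp4 held 96 and 1055 cells. Its nuclear median was -0.06, against -0.01 over all genes, with 38 of 88 genes above 0. Shares of all genes above 0 are not given within clusters, here or below. Counts within clusters therefore have only the median of all genes beside them. Nuclear levels were 12794 and 12697 CPM in the first and 10704 and 11092 CPM in the second, so the 2 clusters differed from each other by more than the libraries did within them. A shallow cluster led by Rflnb and Unc45b (654 and 378 cells, median 830 UMIs) had 21613 and 20539 CPM and a nuclear median of 0.15, with 0.12 over all genes. In the mitochondrial sum each of these 3 clusters was higher with ATRA+agonist, by 0.11, 0.09 and 0.22. A cluster led by Dach1 and Ccdc85a (160 and 243 cells), with 5 of 9 endothelial markers enriched, had few nuclear transcripts of this kind (4147 and 3003 CPM) and a median of 0.46, and a cluster led by Cytl1 and Nebl (82 and 107 cells) had 0.08.

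**Figure D4:**
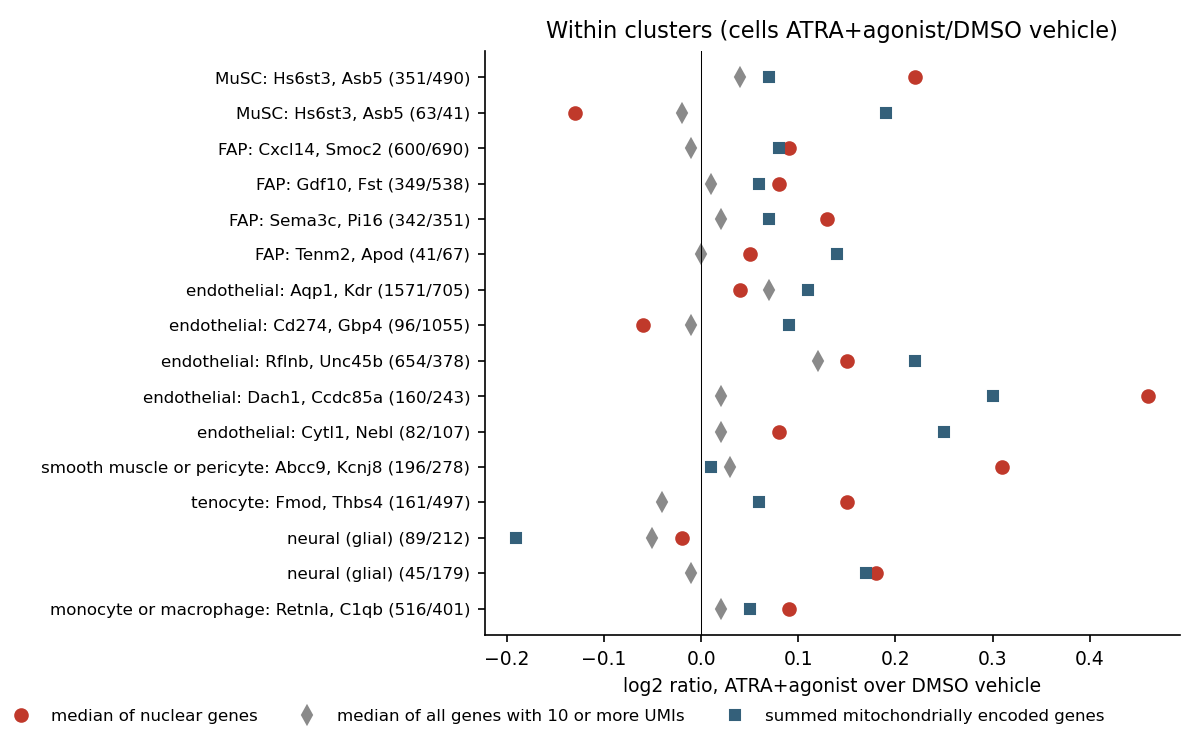
Log2 ratio, ATRA+agonist over DMSO vehicle, within each cluster of a compared class that had at least 40 cells in each library (rows, with cell numbers and, except for neural (glial)-like clusters, leading genes), for the median of the nuclear genes, the median of all genes counted and the summed mitochondrial genes. The 2 largest endothelial-like clusters have nuclear medians of 0.04 and -0.06, not above those of all genes, while the larger MuSC-like cluster lies at 0.22 and the smooth muscle/pericyte-like cluster at 0.31.

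The MuSC-like class also held 2 clusters. The larger (351 and 490 cells), in which Pax7 and Myf5 were among the 5 leading genes, had a nuclear median of 0.22 with 83 of 90 genes above 0, nuclear sums of 15233 and 13327 CPM (0.19, 0.17 to 0.21), and a mitochondrial ratio of 0.07 (0.06 to 0.09). The smaller (63 and 41 cells), led by Hs6st3, Asb5, Tenm4, Pde1c and Dmd, had only 1128 and 1399 CPM of the nuclear genes (-0.31, -0.60 to -0.02) but 71289 and 62671 CPM of the mitochondrial ones. Its cytosolic ribosomal protein level was 5001 and 9878 CPM, against 212423 and 218291 CPM in the larger cluster, and its nuclear-retained long RNAs were at 64033 and 64028 CPM against 31290 and 29245 CPM. It made up a larger part of the MuSC-like cells with ATRA+agonist. Leaving it out raised the nuclear median from 0.18 to 0.22 (0.04 over all genes in the larger cluster) and lowered the mitochondrial ratio from 0.15 to 0.07. By depth, MuSC-like cells with 2500 to 5000 UMIs had a nuclear median of -0.49 (60 and 121 cells), of which 30 and 17 cells came from the smaller cluster. Without these the median was 0.11. Cells with 5000 to 10000 UMIs had 0.19 and deeper cells 0.25, with 105 and 106 cells in the last range.

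**Figure D5:**
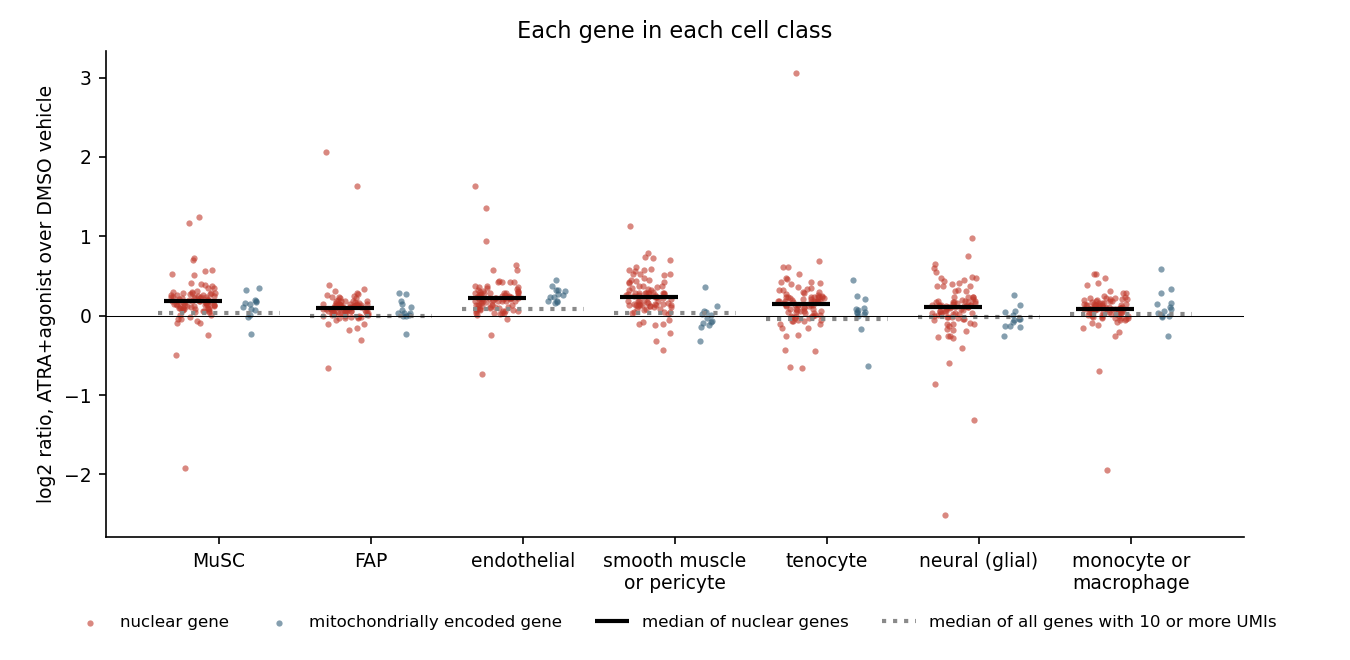
Log2 ratio of each gene with 10 or more UMIs, ATRA+agonist over DMSO vehicle, in the 7 compared classes (points), with the median of the nuclear genes (black line) and of all genes counted (dotted line). The nuclear median lies above that of all genes in each class, by the most in tenocyte-like and smooth muscle/pericyte-like cells (0.15 against -0.04, and 0.23 against 0.04).

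The other classes had smaller values. In FAP-like cells the nuclear median was 0.10 over 92 genes, against 0.00 over all genes, with 77 above 0 against 49.3% of all genes. At least 1.2-fold higher were 7 genes (7.61%, against 16.9%) and lower were 2 (2.17%, against 24.6%). All 4 FAP-like clusters gave nuclear medians above those of all genes, from 0.05 to 0.13. In tenocyte-like cells the median was 0.15, against -0.04, with 72 of 90 genes above 0 (all genes, 46.5%), and all 4 genes of complex II were above 0, from 0.29 to 0.46, with the interval of Sdhb alone above 0 (0.08 to 0.84). In neural (glial)-like cells it was 0.11, against -0.01, with 65 of 90 above 0 (all genes, 49.2%). Their larger cluster (89 and 212 cells) had a nuclear median of -0.02, with 42 of 88 genes above 0 and -0.05 over all genes, and the smaller (45 and 179 cells) had 0.18, with 66 of 87 above 0 and -0.01 over all genes. The class mitochondrial sum was 25671 against 26568 CPM (-0.05, -0.07 to -0.03), but it was above 0 under 4 of 12 alternative settings, from -0.12 to 0.18, and it was -0.19 in the larger cluster and 0.17 in the smaller, so it had no settled direction either. In monocyte or macrophage-like cells the nuclear median was 0.09, against 0.02, with 72 of 90 above 0 (all genes, 52.5%), and without doublet removal it was -0.17. In number, the nuclear median exceeded that of all genes in 7 of 7 classes and the mitochondrial sum was higher with ATRA+agonist in 5 of 7. Within depth ranges the nuclear excess was small in some classes. At 5000 to 10000 UMIs, tenocyte-like cells had a nuclear median of 0.05, against 0.00 over all genes. Neural (glial)-like cells had 0.03 against 0.02 there, and 0.07 against -0.05 at 2500 to 5000 UMIs. Monocyte or macrophage-like cells had 0.12 against 0.04, and 0.03 against 0.04 above 10000 UMIs. At 5000 to 10000 UMIs, FAP-like cells had 0.14 against 0.00 and endothelial-like cells 0.18 against 0.06.

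RNA of fiber genes was counted in classes that are not fibers, at levels that differed between the libraries. In MuSC-like cells 10 fiber genes summed to 146 CPM with ATRA+agonist and 67.1 CPM with DMSO vehicle, with all 10 detected in each. Ckm, 1 of the 10, had 12 and 12 UMIs there, so the genes did not all differ as their sum did. Whether the whole sum came from fibers was not tested. Taken as such, at the proportions of fiber-marker barcodes, it would come with 75.5 and 34.7 CPM of the 94 nuclear genes. That is 0.527% and 0.268% of what was counted. In smooth muscle/pericyte-like cells the 10 genes summed to 221 and 22.8 CPM, with 1 and 3 of them at 0, and the same proportions give 114 and 11.8 CPM, or 0.616% and 0.0751%. The sum was lower with ATRA+agonist in tenocyte-like cells (37.7 and 97 CPM) and neural (glial)-like cells (30.8 and 36 CPM).

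Other mitochondrial and metabolic gene lists were read beside the respiratory genes, with no test between lists. The list nearest in kind, mitochondrial ribosomal proteins, which translate the 13 mitochondrial mRNAs, had similar medians in most classes. In MuSC-like cells the median was 0.22 over 78 genes (85.9% above 0, against 54.9% of all genes). There 44.9% were at least 1.2-fold higher, against 28.2%. The medians were 0.21 in endothelial-like, 0.23 in smooth muscle/pericyte-like, 0.11 in FAP-like and 0.09 in monocyte or macrophage-like cells. Neural (glial)-like cells were at 0.21, against 0.11 for the nuclear respiratory genes, and tenocyte-like cells at 0.07, against 0.15. Assembly factors outside the symbol rule, mostly of complexes II to V, had 0.32 in MuSC-like cells (33 of 37 above 0), and 0.19 over the 19 with 100 or more UMIs. Enzymes of the TCA cycle had 0.19 (12 of 18, or 66.7%) and glycolysis enzymes 0.18 (13 of 16, or 81.2%). The medians of both fuel pathways were at the level of the nuclear respiratory genes in MuSC-like cells. Their shares above 0 were below the 90% of those genes. In smooth muscle/pericyte-like cells they were at 0.03 (9 of 18, or 50%) and 0.13 (11 of 16, or 68.8%). Of all genes counted there 53.2% lay above 0, with a median of 0.04. In MuSC-like cells electron carriers such as cytochrome c and the enzymes of coenzyme Q synthesis had 0.04 (10 of 16, or 62.5%). Mitochondrial antioxidant genes had 0.12 (7 of 12, or 58.3%). The regulators of mitochondrial biogenesis had 0.07 (8 of 15, or 53.3%), near the median of all genes. These shares above 0 were near the 54.9% of all genes. Nuclear-retained long RNAs were at 0.11 (4 of 5). Cytosolic ribosomal proteins went the other way, with a median of -0.09 and 13 of 80 above 0, and since they made up 19.9% and 21.2% of the UMIs of MuSC-like cells, CPM computed without them, mitochondrial and hemoglobin UMIs gave a nuclear median of 0.16.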

How the data were processed

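The 2 libraries of the 10x Genomics 3-prime assay were analysed, 1 per group. The authors aligned reads to mm10 (GRCm38) with Cell Ranger 7.2.0 and deposited raw UMI counts per gene and barcode. From these counts, cells with 300 to 5000 genes, under 20% mitochondrial and under 0.25% hemoglobin beta UMIs were kept, and the 7.5% of each library most like simulated doublets were removed, after the limits of the study's methods. The rest were clustered (2000 variable genes, 30 components, 20 neighbours, resolution 0.8). A cluster was named from a marker list if at least 3 markers and 50% of the list were enriched 2-fold. These naming limits were set after the clusters were seen.

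UMIs were summed per library and class and given as CPM with exact Poisson intervals, and ratios with exact conditional intervals. Both cover counting error only, and with 1 library per group there is no test. Genes with 10 or more UMIs over both libraries entered medians and counts, and a difference was counted past 1.2-fold. Shares carry exact Clopper-Pearson intervals at 95%. The ratios and their intervals were tested on simulated Poisson counts with known folds. Cell filtering, doublet removal, clustering and naming were not tested this way, nor was the spread between mice. Named genes were the 13 mitochondrial genes, the isoform pairs, Ndufa2, for each complex the 3 most abundant nuclear genes and those with the largest and smallest ratio (100 or more UMIs) in MuSC-like cells, and the 10 with the largest lead of 1 class. Nuclear genes with processed pseudogenes are uncertain, since reads can be split between copies. Genes and lists were chosen with earlier results of these data known. Alternatives changed the cell limits, doublet removal, clustering, class assignment, weighting, depth, scaling and gene filter. Software was Python 3.11.15, numpy 2.4.6, scipy 1.17.1, pandas 2.3.3, igraph 0.11.9 and matplotlib 3.10.9. The leading genes of the neural (glial)-like clusters are not reported here.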

Additional observations from a re-analysis of the deposited data

Results flagged for a closer look

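Cox4i2 went in opposite directions in 2 classes. Its log2 ratio of ATRA+agonist over DMSO vehicle was 0.38 (0.21 to 0.55, from 526 and 591 UMIs) in smooth muscle/pericyte-like cells and -0.73 (-1.18 to -0.29, from 66 and 124 UMIs) in endothelial-like cells. Per 1000 UMIs of the 10 smooth muscle and pericyte markers, Cox4i2 had 22.6 and 42.7 UMIs in endothelial-like cells and 31.4 and 23.2 in smooth muscle/pericyte-like cells. In MuSC-like cells, which held 928 and 682 CPM of these markers, it had 0.647 and 3.33. The source of the marker RNA in each class was not tested. The complex I assembly factor Ndufaf4 was at 0.37 (0.01 to 0.73, from 139 and 122 UMIs) in endothelial-like cells and at -0.30 (-0.57 to -0.02, from 202 and 251 UMIs) in FAP-like cells. Neither difference between classes was tested, since each class has 1 library per group, and among this many genes and classes some pairs of intervals will part by counting error alone.

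Barcodes with 20% or more mitochondrial UMIs were outside the comparisons. Among barcodes that met the other limits they made up 1.36% with ATRA+agonist (103 of 7570, exact interval 1.11% to 1.65%) and 0.635% with DMSO vehicle (48 of 7565, 0.468% to 0.84%). Their median depths were 825 and 841 UMIs, and the nuclear genes gave 1.02% and 1.51% of their UMIs.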

How the results depend on the processing

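In MuSC-like cells the nuclear median (0.18) stayed above 0 under every alternative, at 0.26 with no upper gene limit, 0.21 with no hemoglobin limit, 0.13 with cells assigned by their own markers, 0.08 with cells weighted equally, 0.05 with cells thinned to 1000 UMIs, 0.13 with median-of-ratios scaling, 0.16 with CPM without mitochondrial, ribosomal protein and hemoglobin UMIs, and 0.22 without the smaller cluster. In the same order the mitochondrial ratio (0.15) was 0.13, 0.17, 0.05, 0.26, 0.26, 0.10, 0.13 and 0.07, and it was 0.17 with no limit on mitochondrial UMIs and 0.10 under a limit of 10%. The count of nuclear genes at least 1.2-fold higher (23, or 25.6% against 28.2% of all genes) was 44 with no upper limit on genes and 11 with equal weights. It was 15 with median-of-ratios scaling and 37 without the smaller cluster. The share of all genes under these settings is not given, so the counts show no gain or loss particular to these genes. The nuclear median exceeded that of all genes in 6 to 7 classes, and the mitochondrial sum was higher in 5 to 7. Sums below 0 turned positive as follows. In smooth muscle/pericyte-like cells the mitochondrial sum was 0.17 without doublet removal, 0.18 with no upper gene limit, 0.21 with no mitochondrial limit, 0.04 under 10%, 0.14 by own markers, 0.22 with equal weights and 0.11 thinned. In neural (glial)-like cells it was 0.07 without doublet removal, 0.18 with no upper gene limit, 0.01 with no mitochondrial limit and 0.06 under 10%. Other results turned as well. Without doublet removal the monocyte or macrophage-like nuclear median was -0.17 and its sum -0.18. In MuSC-like cells nuclear complex IV was -0.01 with equal weights and -0.10 thinned, and Cox4i1 was 0.00 with no upper gene limit. Thinned, Ndufa2 was -0.12, Ndufb9 -0.15, Ndufa6 -0.06, Sdha -0.13, Uqcrb -0.03, Cox7c -0.23, Cox7a2 -0.36 and Atp5l -0.21. By own markers mitochondrial complex IV was -0.01, mitochondrial complex V -0.04, mt-Atp6 -0.04 and mt-Co2 0.00. Under the same setting mt-Co1 was -0.13, mt-Nd5 -0.03, Sdhc -0.11 and Uqcrh -0.04. The cause was not tested for any of these. Of 556 values for named genes 482 moved by less than their counting interval, and of 425 values for sums, medians and counts 223 did. Leaving out the smaller MuSC-like or the shallow endothelial-like cluster, and the values within clusters and depth ranges, were chosen after seeing the data. No paired analysis was possible because each group has 1 library. Pooled mice, 1 library per group and a fiber-marker cluster in 1 library limit every comparison, and genes under 100 UMIs have wide intervals.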

Other observations

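Classes with under 100 cells in a library were not compared, and their sums are given as values. The nuclear genes summed to 10345 CPM with ATRA+agonist and 12706 CPM with DMSO vehicle in B cell-like cells (640 and 59 cells), 13935 and 15596 CPM in T or NK cell-like cells (103 and 57), 14748 and 14756 CPM in dendritic-like cells (118 and 74), 12131 and 13218 CPM in mast cell-like cells (218 and 43), and 16540 and 18212 CPM in neutrophil-like cells (22 and 152). Neutrophil-like cells held the lowest mitochondrial sums of all named classes, 16734 and 18383 CPM. Of the 59 DMSO vehicle B cell-like cells, 29 lay in a cluster led by the plasma cell genes Jchain and Igkc, which held 19 of the 640 with ATRA+agonist.

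The fiber isoform Cox6a2 was also counted in immune classes of the ATRA+agonist library. Dendritic-like cells held 42 UMIs of it in 7 of 118 cells, with 1 UMI of Ckm, and B cell-like cells held 63 UMIs in 11 of 640 cells, with 47 UMIs of Ckm. Fiber-marker barcodes held 0.252 UMIs of Cox6a2 per UMI of Ckm. With DMSO vehicle Cox6a2 was at 0 in 74 dendritic-like cells (exact upper limit 4.86%) and in 59 B cell-like cells (6.06%). These limits cover counting of cells with a UMI only, and no difference between libraries is drawn from them.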
